A study of Mus musculus with 9 samples.

Results

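Cpt1a and Acaa2, 2 genes of mitochondrial fatty acid oxidation, were followed across lungs of lean mice, obese mice and obese mice with lipopolysaccharide-induced lung injury. Each was read by 1 probe, A_51_P427674 for Cpt1a and A_51_P125260 for Acaa2, out of 60691 probes on the array. Both were selected on these same measured levels, compared between the 3 groups, so the levels and their differences are a description and carry no test. The files give a manufacturer's identifier for most probes, and a gene symbol was available here for 46 of them, matched through their transcript accessions. The accessions of the 2 probes were those of Cpt1a and Acaa2. Other probes for either gene, among those without a symbol, could be neither found nor excluded.

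All 9 mice were 20-week-old C57BL/6J males, and each gave 1 array from the upper and middle lobes of the right lung. The 3 Control mice ate normal chow and received sterile saline, with a labelled body weight of 31 ± 0.5 g. The 3 HFD mice ate a high-fat diet, with 60% of calories from fat, for 12 weeks and received sterile saline. The 3 HFD + LPS mice ate the same high-fat diet for 12 weeks and received LPS, a bacterial cell wall component that inflames the lung, through the trachea. The label gives 45 ± 0.5 g for both high-fat groups, and the lungs were collected 24 h after the infusion. No group combined normal chow with LPS, so an effect of LPS on lean lungs and an interaction of diet with LPS cannot be told apart in these data. The spread below is that between 3 mice of a group, with 1 array each.

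Fatty acid oxidation cuts long-chain fatty acids into acetyl-CoA inside mitochondria. Cpt1a encodes carnitine palmitoyltransferase 1A of the outer mitochondrial membrane, which loads long-chain acyl groups onto carnitine for import and is inhibited by malonyl-CoA. This is the rate-controlling entry step of the pathway in many tissues. Acaa2 encodes the mitochondrial 3-ketoacyl-CoA thiolase, which releases acetyl-CoA at the last step of each turn of the oxidation spiral. Genes of the pathway, Cpt1a among them, are known targets of the fatty acid sensing nuclear receptor PPARα, encoded by Ppara. In the lung, fatty acid oxidation is used by alveolar epithelium, endothelium and macrophages, among other cells.

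To show the DNA in front of the gene with the larger difference, the 250 bases before the annotated start of Cpt1a are printed from RefSeq (mouse GRCm38.p6, chr19:3323051-3323300, forward strand). Capitals mark 2 GC boxes, here on the reverse strand, and 1 CCAAT box. No such sequence is printed for Acaa2.
Cpt1a promoter: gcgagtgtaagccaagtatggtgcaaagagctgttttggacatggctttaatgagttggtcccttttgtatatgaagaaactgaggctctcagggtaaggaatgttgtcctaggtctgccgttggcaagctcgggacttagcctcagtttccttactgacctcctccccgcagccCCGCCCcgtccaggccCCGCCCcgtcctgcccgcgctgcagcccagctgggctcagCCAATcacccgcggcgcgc
GC content of the window was 59.6%, and the median over 32851 windows of the same length before mouse genes was 52.4%. Both strands were searched for each motif, and the matches did not overlap. The GC box GGGCGG was found 75 to 70 and 59 to 54 bases before the start, and 32.7% of all windows hold it at least once. The CCAAT box lay 19 to 15 bases before the start, and 33.8% of windows hold CCAAT. The sequence AGGTCA, the core letters that many nuclear receptors bind, was found 1 time on the reverse strand, 94 to 89 bases before the start, and 14% of windows hold it. The direct repeat of AGGTCA with 1 base between, the element of PPARα with its partner RXR, had 0 exact matches in this window, as in all but 0.0335% of windows. TATAAA had 0 matches, and 12.4% of windows hold it. A match of letters is a description of this window and no measure of binding.

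Between arrays, 32.6% (HFD + LPS replicate 2) to 55.6% (HFD replicate 3) of probes were well above background, and r across probes lay between 0.938 and 0.976 for pairs of arrays within a group. The 75th percentile of an array, a measure of its brightness, was 5.68 ± 0.07 (log2, SD, n = 3) in Control, 5.86 ± 0.38 (n = 3) in HFD and 6.24 ± 0.31 (n = 3) in HFD + LPS. Levels below are log2 intensities minus that percentile, so that 0 is the 75th percentile of the array. Arrays with the same recorded scan date were taken as 1 slide, and rows are the recorded array positions. Read this way, slide 1 held 8 arrays. Its row 1 held the 3 Control arrays and HFD replicate 1, and its row 2 held HFD replicates 2 and 3 and HFD + LPS replicates 1 and 2. Slide 2 held HFD + LPS replicate 3, in row 1.

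Cpt1a was higher in HFD than in Control lungs and overlapped between HFD and HFD + LPS lungs. Its level was 2.23, 2.73 and 2.63 on the 3 Control arrays, with a mean of 2.53 ± 0.27 (log2, SD, n = 3). In HFD lungs it was 3.51, 3.85 and 3.66, with a mean of 3.67 ± 0.17 (SD, n = 3). In HFD + LPS lungs it was 4.08, 3.85 and 3.29, with a mean of 3.74 ± 0.40 (SD, n = 3). The 6 arrays of high-fat mice all lay above the 3 Control arrays, while the HFD and HFD + LPS arrays overlapped. Control replicate 1 was the lowest of all arrays, and HFD + LPS replicate 3, the lone array of slide 2, was the lowest of the high-fat arrays. In order of group means, Control came first, HFD next and HFD + LPS last, and HFD and HFD + LPS did not differ beyond their spread.

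Acaa2 had a narrower range. Its level was 5.65, 6.10 and 5.87 on the Control arrays, with a mean of 5.87 ± 0.22 (log2, SD, n = 3). In HFD lungs it was 6.10, 6.05 and 6.34, with a mean of 6.16 ± 0.15 (SD, n = 3). In HFD + LPS lungs it was 6.38, 6.44 and 6.16, with a mean of 6.33 ± 0.15 (SD, n = 3). Control and HFD arrays overlapped, since HFD replicate 2 lay below Control replicate 2, and HFD and HFD + LPS arrays overlapped too. HFD + LPS arrays all lay above the Control arrays, by a margin of 0.061 between the nearest arrays. The group means stood in the same order as those of Cpt1a, and the arrays of both neighbouring pairs in that order overlapped. As with Cpt1a, Control replicate 1 and HFD + LPS replicate 3 were the lowest arrays of their groups. Levels of the 2 genes come from different probes and are not set against each other.

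**Figure D1:**
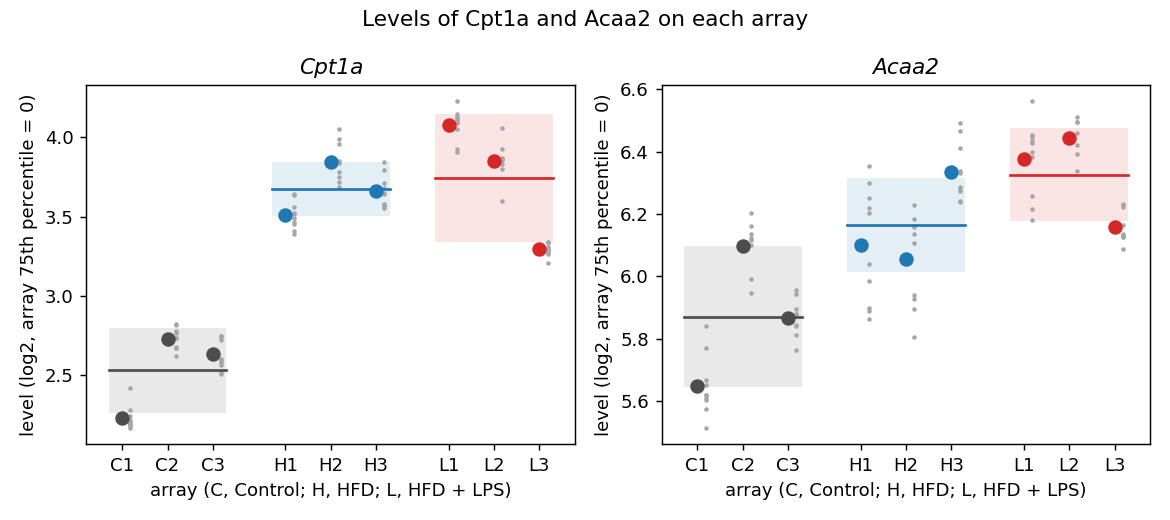
Levels of Cpt1a (left) and Acaa2 (right) on each of the 9 arrays, in log2 with the 75th percentile of the array at 0. Large points are array values, small grey points the spots behind them, lines the group means and shaded bands ± 1 SD (n = 3), and the 2 vertical axes cover different ranges. For Cpt1a the lowest HFD array, at 3.51, lies above the highest Control array, at 2.73, and for Acaa2 Control and HFD overlap.

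Each probe was printed 10 times on an array, so the error of a level within an array could be measured. For Cpt1a, all 90 spots were well above background, 2 were outliers and 0 were saturated. The SD between its spots on 1 array ranged from 0.041 to 0.13 (log2) and the standard error of an array value from 0.013 to 0.045. The pooled SD between arrays of a group was 0.29. With 1 array per mouse, this spread holds differences between mice and between arrays, which cannot be told apart. Every single Cpt1a spot on the HFD arrays, from 3.39 to 4.05, lay above every Control spot, from 2.17 to 2.83. For Acaa2, all 90 spots were well above background and 6 were outliers. The SD between its spots ranged from 0.051 to 0.185, the standard error from 0.016 to 0.059, and the pooled SD between arrays was 0.18. Control spots of Acaa2, from 5.51 to 6.20, overlapped the HFD spots, from 5.81 to 6.49, and the HFD + LPS spots, from 6.09 to 6.56. Spots on an array share 1 mouse and are no replicates of a condition.

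Before scaling, the mean intensity of Cpt1a was 229.9, 337 and 335 in Control, 501, 1076 and 748 in HFD and 1186, 917 and 939 in HFD + LPS. Here too all HFD arrays were above all Control arrays. The mean intensity of Acaa2 was 2456, 3480 and 3154 in Control, 3017, 4971 and 4782 in HFD and 5832, 5541 and 6837 in HFD + LPS. The HFD + LPS arrays lay above all other arrays in Acaa2 intensity, which they did not after scaling, and their 75th percentiles were also the highest by group mean. The part of array brightness in these intensities was not tested apart from the settings given below.

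In HFD vs. control, the comparison for diet alone, Cpt1a was higher by 1.14 (log2, SE 0.26), a 2.20-fold difference, and higher in 9 of 9 pairs of arrays. The nearest arrays of the 2 groups were 0.78 apart. Of the 29978 probes tested, 0.731% had a higher difference. Acaa2 was higher by 0.29 (SE 0.21), a 1.22-fold difference, in 8 of 9 pairs of arrays, and 18.7% of probes had a higher difference. Without Control replicate 1, and likewise with the row on the slide as a block, the Acaa2 difference was 0.18. The median difference over all probes tested was 0.022. With limma and Benjamini-Hochberg adjustment, 0 probes were called, or 0% of those tested, so neither gene was called. The lowest adjusted p was 0.775, 1353 probes had an unadjusted p under 0.05, and the methods' t-test gave 1783 at that threshold and 0 after adjustment. Every HFD array lay above every Control array for 6.87% of probes, Cpt1a among them. These levels chose the 2 genes, so nothing is read from either count.

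In HFD + LPS vs. HFD, the comparison for LPS in obese lungs, both genes differed by less than the standard error. Cpt1a was higher by 0.069 (log2, SE 0.26), or 1.05-fold, in 6 of 9 pairs of arrays, and 40.0% of the 29698 probes tested had a higher difference. Acaa2 was higher by 0.16 (SE 0.21), or 1.12-fold, in 8 of 9 pairs, and 32.5% of probes had a higher difference. Its difference was 0.058 to 0.54 over the other settings tried and 0.10 to 0.25 with 1 array left out. The median over all probes was -0.050. Here limma called 74 probes, or 0.249%, with 0 of the 2 genes among them, and HFD + LPS arrays lay wholly above HFD arrays for 10.2% of probes, again with 0 of the 2 genes. The count called ranged from 10 (without HFD replicate 3) to 475 (without HFD + LPS replicate 1) with 1 array left out, and was 0 without the filter on dim probes. The sign of the Cpt1a difference depended on the scaling, with -0.075 after quantile normalisation. Without HFD + LPS replicate 3, the Cpt1a difference was 0.29, and without HFD + LPS replicate 1 it was -0.10.

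In HFD + LPS vs. control, diet and LPS changed together. Cpt1a was higher by 1.21 (log2, SE 0.26), or 2.31-fold, in 9 of 9 pairs of arrays, with 0.56 between the nearest arrays, and 2.97% of the 28264 probes tested had a higher difference. Acaa2 was higher by 0.45 (SE 0.21), or 1.37-fold, in 9 of 9 pairs, and 19.9% of probes had a higher difference. The Acaa2 value ranged from 0.32 to 1.01 over the other settings tried and from 0.34 to 0.57 with 1 array left out. The median over all probes was -0.017. Of the probes tested, limma called 1133, or 4.01%, Cpt1a among them and Acaa2 not. Under the 12 other settings tried for these calls, of which the row block and the fit without the filter on dim probes called 0 probes, Cpt1a was called in 2, which were the stricter filter on dim probes and the fit without HFD + LPS replicate 3. It was not called when any 1 of the 3 Control arrays, HFD + LPS replicate 1 or HFD + LPS replicate 2 was left out. Over all probes, 12, 22 and 38 were called without Control replicate 1, Control replicate 2 and HFD + LPS replicate 2, and the Cpt1a difference in those fits was 1.06, 1.31 and 1.15. Without Control replicate 3 and HFD + LPS replicate 1, 341 and 1018 were called, and the difference was 1.26 and 1.04. HFD + LPS arrays lay wholly above Control arrays for 14.1% of probes, both genes among them. Nothing is read from these counts either. This comparison shares its Control arrays with HFD vs. control and its HFD + LPS arrays with HFD + LPS vs. HFD, so the 3 sets of differences are not independent of each other.

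**Figure D2:**
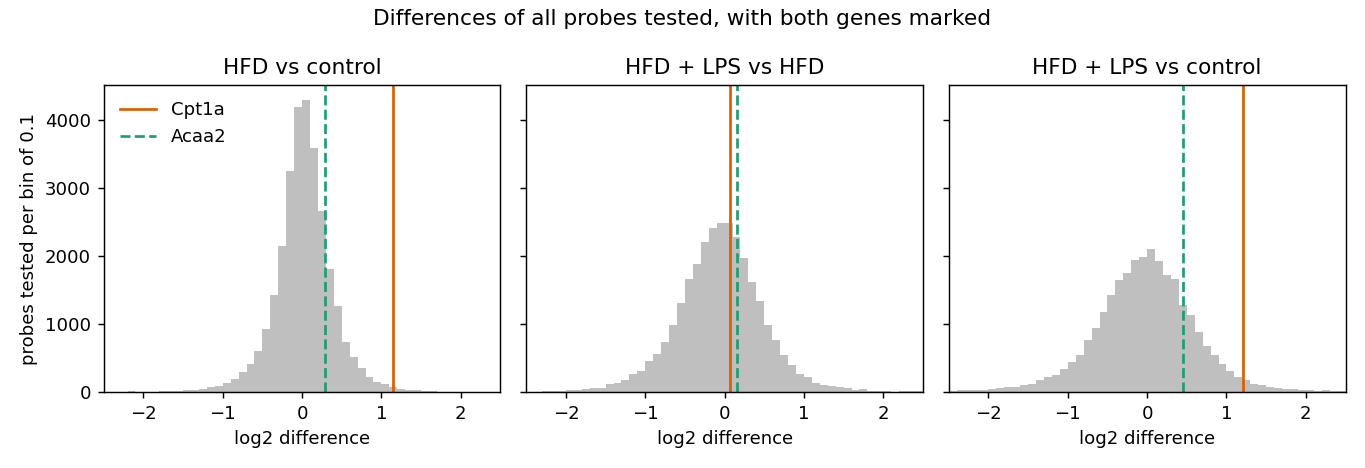
Histograms of the log2 differences of all probes tested in the 3 comparisons, in bins of 0.1, drawn from -2.5 to 2.5, with the difference of Cpt1a (solid line) and Acaa2 (dashed line) marked. Cpt1a lies in the upper tail in HFD vs. control, at 1.14, and near the middle in HFD + LPS vs. HFD, at 0.069, and Acaa2 lies inside the bulk of probes in all 3 panels.

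A rank within an array needs no scaling between arrays. The Cpt1a signal was above 90.1%, 92.2% and 91.8% of probes on the Control arrays, 94.7%, 95.4% and 95.1% on the HFD arrays and 95.9%, 95.2% and 93.3% on the HFD + LPS arrays. By rank, too, all high-fat arrays lay above all Control arrays. The Acaa2 signal was above 98.7%, 99.1% and 99.0% of probes in Control, 99.1%, 99.2% and 99.4% in HFD and 99.5%, 99.4% and 99.1% in HFD + LPS. So close to the top of the array, a rank leaves Acaa2 little room to differ.

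The ratio of the 2 genes on the same array also needs no scaling. Relative to its Control mean, the log2 ratio of Cpt1a over Acaa2 was -0.08, -0.03 and 0.10 on the Control arrays (SD 0.094). It was 0.75, 1.13 and 0.66 in HFD, with a mean of 0.85 ± 0.25 (SD, n = 3), or 1.80-fold the Control ratio. In HFD + LPS it was 1.04, 0.74 and 0.48, with a mean of 0.75 ± 0.28 (SD, n = 3), or 1.69-fold. All 6 high-fat arrays lay above all Control arrays, and HFD and HFD + LPS overlapped. The Control arrays were close together in this ratio, as both genes were lowest on Control replicate 1 and highest on Control replicate 2. The ratio is made of the same levels that chose the 2 genes, so it is a description too, and it does not show that either gene stayed the same.

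**Figure D3:**
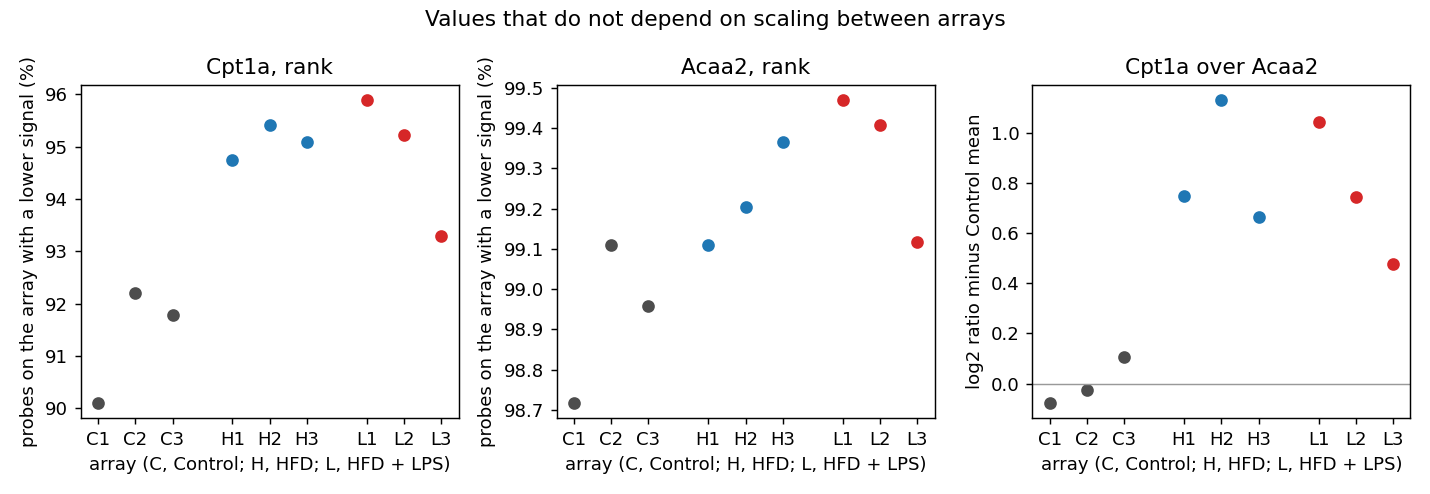
The percentage of probes with a lower signal on the same array for Cpt1a (left) and Acaa2 (middle), and the log2 ratio of Cpt1a over Acaa2 minus its Control mean (right), for each of the 9 arrays, with axes that do not start at 0 for the ranks. All HFD and HFD + LPS arrays lie above the Control arrays in the left and right panels, and in the middle panel the groups lie between 98.7% and 99.5%.

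The wider pathway could be read only in small part. Of a list of 51 genes of fatty acid uptake, activation, carnitine transport, mitochondrial and peroxisomal oxidation and their regulators, 3 had a probe with a gene symbol, namely the 2 genes themselves and Ppara. Ppara was at -0.53 ± 0.43 (log2, SD, n = 3) in Control, -0.71 ± 0.53 in HFD and -0.91 ± 0.79 in HFD + LPS, where it was well above background on 2 of 3 arrays. The groups overlapped widely. With limma and Benjamini-Hochberg adjustment over all probes, Ppara differed by -0.18 (SE 0.42, adjusted p = 1.00) in HFD vs. control, by -0.20 (SE 0.42, adjusted p = 0.83) in HFD + LPS vs. HFD and by -0.38 (SE 0.42, adjusted p = 0.60) in HFD + LPS vs. control. So Ppara, the 1 other pathway gene with a symbol, passed the test in 0 of 3 comparisons, in which 0%, 0.249% and 4.01% of all probes did. The list was drawn up with earlier results of these data known, and nothing about the pathway is read from Ppara. The rest of the list, the remaining carnitine shuttle and oxidation spiral enzymes included, was not analysed here.

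Among 26 other genes with a symbol and a probe well above background on all 9 arrays, the profile most like that of Cpt1a was that of Cav2. Likeness was the root mean square difference between log2 levels after each gene was centred on its own mean over the 9 arrays, where 0 is an identical profile. It was 0.34 for Cav2, which encodes the caveolar coat protein caveolin 2, then 0.37 for Lhfp, which encodes a tetraspan membrane protein, and 0.42 for Acaa2. Cav2 was at 4.25 ± 0.32 (SD, n = 3) in Control, 4.92 ± 0.10 in HFD and 5.16 ± 0.27 in HFD + LPS. Like Cpt1a, it was lowest on Control replicate 1 and its Control arrays lay below all others, but on HFD + LPS replicate 3 it was the highest of the 9 arrays where Cpt1a was the lowest of the high-fat arrays. Lhfp was at 3.75 ± 0.22 (SD, n = 3), 4.23 ± 0.15 and 4.28 ± 0.03 in Control, HFD and HFD + LPS.

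The 3 profiles most like that of Acaa2 were those of Lhfp, at 0.16, of the early endosome GTPase gene Rab5a, at 0.18, and of Tm9sf1, a gene of the transmembrane 9 family, at 0.18. Rab5a was at 4.32 ± 0.18 (SD, n = 3) in Control, 4.59 ± 0.18 in HFD and 5.03 ± 0.13 in HFD + LPS, and Tm9sf1 at 3.96 ± 0.15, 3.97 ± 0.07 and 4.41 ± 0.12. Cpt1a came 18th among the 26, at 0.42. The measure takes in the size of a difference as well as its shape, so a gene with a small range such as Acaa2 lies near many other genes. All these values share the same 9 arrays and their scaling.

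**Figure D4:**
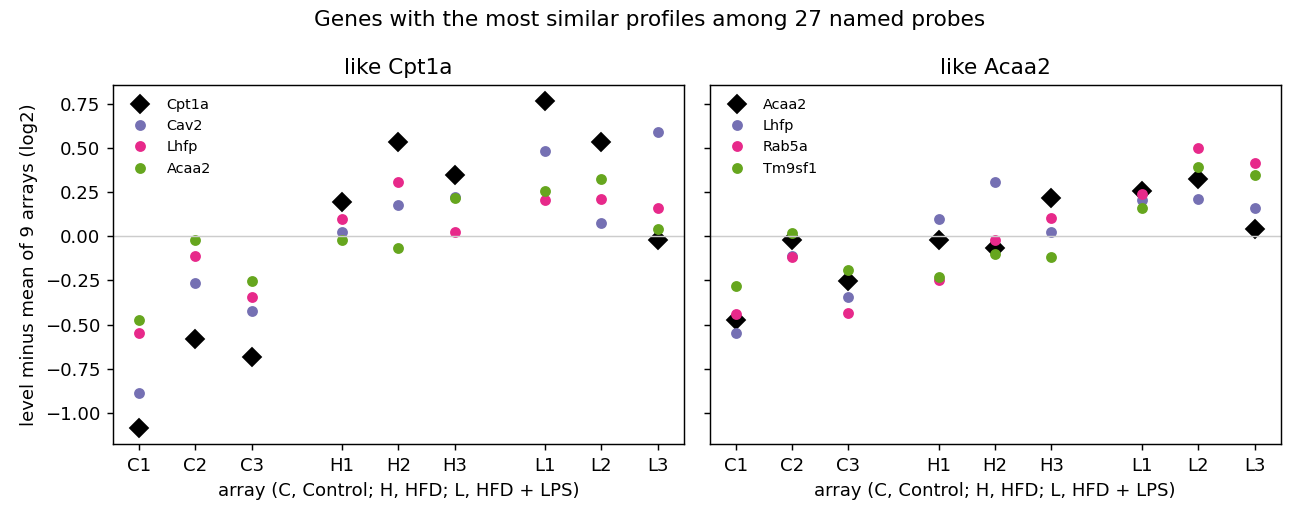
Log2 levels minus the mean over the 9 arrays, for Cpt1a (left, diamonds) and Acaa2 (right, diamonds) with the 3 genes of the most similar profile (circles), array by array. Cpt1a spans a wider range than any of its 3 nearest genes, and on HFD + LPS replicate 3 it lies near 0 while Cav2 is at 0.59.

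Whole lung was measured, so more cells of a type that carries a transcript and more of that transcript per cell cannot be told apart. Of 28 markers of lung epithelium, endothelium, macrophages, neutrophils and adipocytes, 2 had a probe with a symbol. These were Cav2, listed here under alveolar type 1 cells, and the lipid carrier gene Apoe, listed under macrophages. Whether either is particular to its cell type in these lungs was not tested. Both were well above background on all 9 arrays. Apoe was at 6.26 ± 0.32 (SD, n = 3), 6.24 ± 0.16 and 6.09 ± 0.59 in Control, HFD and HFD + LPS, with overlapping groups, while Cav2 was higher in HFD than in Control by 0.66 (SE 0.24, limma adjusted p = 1.00). With 2 markers, the part of cell composition in the Cpt1a and Acaa2 levels was not tested.

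Where an array lay on its slide moved with the groups, since all Control arrays and 1 HFD array lay in row 1 of slide 1. Within that row, Cpt1a was 0.98 higher and Acaa2 0.23 higher on the 1 HFD array than on the mean of the 3 Control arrays. Within row 2, with 2 arrays against 2, HFD + LPS exceeded HFD by 0.21 in Cpt1a and by 0.21 in Acaa2. With the row as a block, the Cpt1a difference was 0.84 in HFD vs. control and 0.90 in HFD + LPS vs. control, a contrast for which limma then called 0 probes. The block went by row number alone, so HFD + LPS replicate 3 of slide 2 was grouped with row 1 of slide 1. The part of that array in these values was not tested. Under the 10 other settings tried, the row block included, and with any 1 Control or HFD array left out, Cpt1a stayed higher in HFD than in Control. It was higher by 0.84 to 1.32 over the settings and by 0.99 to 1.24 over the arrays left out. Acaa2 was higher in HFD by 0.18 to 0.47 over the same settings.

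**Figure D5:**
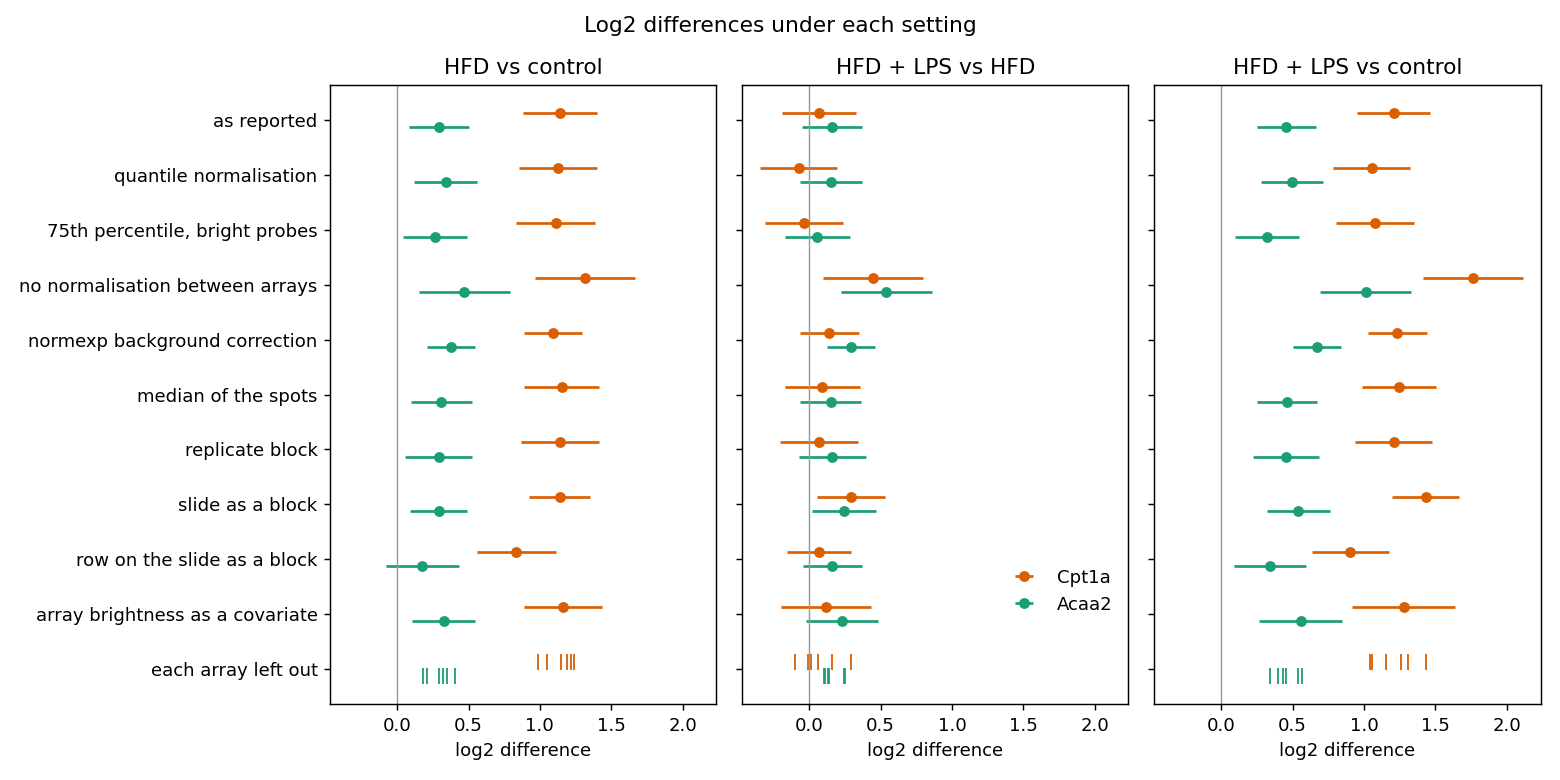
Log2 differences of Cpt1a and Acaa2 in the 3 comparisons, as reported (top) and under each other setting, with bars of ± 1 SE, and with each array of the 2 groups compared left out in turn (ticks, bottom). Cpt1a lies above 0 in HFD vs. control and in HFD + LPS vs. control under every setting drawn, and on both sides of 0 in HFD + LPS vs. HFD.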

How the data were processed

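Lung RNA of 9 mice was labelled by random priming and hybridised to 1-colour Agilent arrays. Spots were quantified by the authors in Agilent Feature Extraction (version 11.0.1.1 per the labels), and the files they deposited hold background-subtracted intensity values per spot, not normalised between arrays, with flags. The authors also deposited a log2 table from GeneSpring GX, normalised between arrays, which does not list the 2 probes. Here control and outlier-flagged spots were left out, as were 132 further probes, by name, that the authors' log2 table does not list. The probes with accessions, which that table does not list either, were kept. A level is the mean log2 intensity of a probe's spots minus the 75th percentile of its array. Testing required that a probe exceeded background (the well-above-background flag) on 3 or more of the 6 arrays in a comparison. limma 3.58.1 (R 4.3.3; lmFit, eBayes) used the 9 arrays together and a term for group, and p-values were adjusted by Benjamini-Hochberg with a threshold of 0.05. The fit was tested on simulated data. Standard errors of the 2 genes come from that fit. Accessions were matched to RefSeq symbols (46 of 50). Named were the 2 genes, pathway genes with a symbol and, for each of the 2, the 3 most similar profiles, with cell type markers that have a symbol. Pex11a was named after its values were seen. The members and lists were chosen with earlier results of these data known.

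Alternatives were quantile normalisation, a percentile over bright probes, no normalisation, normexp (offset 50, on median signals), the spot median, replicate, slide and row blocks, a brightness covariate, other filters, the methods' t-test and leaving out each array of the 2 groups compared. Values within a slide row were chosen after seeing the data.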

Additional observations from a re-analysis of the deposited data

How the results depend on the processing

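Under the settings tried, the Cpt1a difference moved by more than 1 SD between arrays with the row as a block, to 0.84 in HFD vs. control and 0.90 in HFD + LPS vs. control. Without normalisation it was 0.45 in HFD + LPS vs. HFD and 1.77 in HFD + LPS vs. control, and Acaa2 was at 0.54 and 1.01. Normexp gave 0.67 for Acaa2 in HFD + LPS vs. control. The cause was not tested. Arrays were left out only from the 2 groups compared. With each of them left out, Cpt1a ranged from 0.99 to 1.24, from -0.10 to 0.29 and from 1.04 to 1.43 in HFD vs. control, HFD + LPS vs. HFD and HFD + LPS vs. control. Acaa2 ranged from 0.18 to 0.41, from 0.10 to 0.25 and from 0.34 to 0.57.

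The count of probes called by limma in HFD vs. control stayed at 0 with each Control or HFD array left out, and the methods' t-test gave 1783 unadjusted. In HFD + LPS vs. HFD, 74 probes became 47 with quantile normalisation, 48 with the replicate block, 0 without the filter on dim probes (the cause was not tested), 358 when a probe had to be well above background on each of 6 arrays, and 3842 (unadjusted) or 1 (adjusted) by the t-test. Left-out arrays gave 10 (HFD replicate 3) to 475 (HFD + LPS replicate 1), with 11, 36 and 13 without HFD replicates 1 and 2 and HFD + LPS replicate 2. In HFD + LPS vs. control, 1133 became 0 with the row block, 0 without the filter, and 5566 (unadjusted) or 3 (adjusted) by the t-test. Left-out arrays gave 12 (Control replicate 1) to 1018 (HFD + LPS replicate 1), with 22, 341, 38 and 682 without Control replicates 2 and 3 and HFD + LPS replicates 2 and 3.

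The replicate block left the differences of both genes at their values, with an SE of 0.27 for Cpt1a. Deviations of same-numbered arrays correlated between -0.20 and 0.32. With 3 arrays a group, this cannot decide whether the numbers pair the mice. The authors' log2 table gave no value for Cpt1a and Acaa2. All spots of both probes were well above background, and the number of arrays, 3 a group, limits the precision.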

Other observations

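Pex11a, which encodes a peroxisomal membrane protein of peroxisome division and is outside the pathway list, was singled out after its values were seen. Its level was 3.16, 3.39 and 3.48 on the Control arrays, 2.69, 2.86 and 3.41 on the HFD arrays and 3.12, 2.91 and 3.17 on the HFD + LPS arrays (log2 relative to the 75th percentile). The groups overlapped, and limma gave a difference of -0.36 (SE 0.24, adjusted p = 1.00) in HFD vs. control, while Cpt1a and Acaa2 had differences above 0 in that comparison.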
